A study of Mus musculus with 2 samples.

Results

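The miR-29 family of the mouse has 4 genes, Mir29a, Mir29b-1, Mir29c and Mir29b-2, and all 4 were found by gene symbol among the 2202 miRNA genes of the deposited tables. They were chosen by name, as a family, and not by a filter on their counts, though with earlier results of these data known. They were measured in the gastrocnemius, the large muscle of the calf. It came from 2 mice of strain B6CASTF1/J, the offspring of a cross between C57BL/6 and CAST, both female and 10 days old, with no treatment named in the labels. Total RNA was extracted, molecules shorter than 30 bases were selected, and a miRNA sequencing library was made from each mouse. The labels call the libraries biological replicates 1 and 2 and give them 1 shared donor entry beside separate tissue samples, and they describe each sample by an animal number of its own. They are taken here as separate animals, and the spread between them may in part be technical. All samples form 1 group and there is no contrast between conditions. The comparisons are therefore between the family's genes, between its loci, and between the libraries.

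A miRNA is cut from a hairpin precursor whose 2 arms, named 5p and 3p, can each give a short mature RNA. Bases 2 to 8 of the mature RNA, the seed, pair with target messages and lead to their repression. The miR-29 family is known for repressing messages of the extracellular matrix, among them collagens and elastin, and for opposing fibrosis. In muscle it is known to promote the differentiation of myoblasts, and in several tissues its levels are known to rise as the tissue matures after birth.

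The family is shown first by its mature 3p arms, because the counts turn on which of these are shared between genes. RefSeq entries (build GRCm38.p6) matched all 4 genes. Capitals mark the seed, U stands for T, and all sequences run 5′ to 3′.

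miR-29a-3p, from Mir29a: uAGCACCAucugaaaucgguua

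miR-29c-3p, from Mir29c: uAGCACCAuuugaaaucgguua

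miR-29b-3p, from Mir29b-1 and Mir29b-2: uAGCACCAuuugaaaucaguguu

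The seed AGCACCA was the same in all 4 genes, and among 1738 mature entries of 1058 mouse genes in RefSeq no other gene carried it. The 3p arms differ outside the seed. Counted from 1 at the 5′ end, with the base of miR-29a-3p first, miR-29a-3p and miR-29c-3p differ at a single position, C10U. Against miR-29b-3p, miR-29a-3p differs at 4 of 22 positions (C10U, G18A, U21G and A22U), and miR-29c-3p at 3 (G18A, U21G and A22U, with the base of miR-29c-3p first). The 3p arms of Mir29b-1 and Mir29b-2 are identical over all 23 bases. A read of miR-29b-3p therefore matches both genes equally well.

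The 5p arms, known as the less abundant arm of miR-29, are shown because they can tell the Mir29b copies apart. Their seeds differ between all 4 genes.

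miR-29a-5p, from Mir29a: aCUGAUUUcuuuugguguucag

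miR-29c-5p, from Mir29c: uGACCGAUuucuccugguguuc

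miR-29b-1-5p, from Mir29b-1: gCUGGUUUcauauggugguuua

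miR-29b-2-5p, from Mir29b-2: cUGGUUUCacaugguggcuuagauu

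The longest stretch common to the 5p arms of the Mir29b copies is 9 bases, cugguuuca. No window of 18 bases in any of these 5p arms occurs in another annotated mouse precursor.

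The family lies at 2 loci of 2 genes each. On chromosome 6 (build mm10, minus strand), Mir29a (ENSMUSG00000065610.1, 31062660 to 31062747) and Mir29b-1 (ENSMUSG00000065604.2, 31063023 to 31063093) are 275 bases apart. On chromosome 1 (plus strand), Mir29b-2 (ENSMUSG00000065412.3, 195037040 to 195037120) and Mir29c (ENSMUSG00000065548.1, 195037547 to 195037634) are 426 bases apart. No other annotated miRNA gene lies within 100 kb of either locus. Mir29a has no overlapping annotated gene, and Mir29b-1 overlaps the lincRNA Gm27019 on its own strand by 2 bases. Mir29b-2 and Mir29c both lie in an exon of 1 of the 4 transcripts of the non-coding gene A330023F24Rik on their strand. They also lie opposite an exon of 1 of the 4 transcripts of Cd46, which encodes a complement regulator. Each locus thus pairs a gene whose 3p arm is its own with a copy of Mir29b.

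The hairpins are printed with the 3p arm in capitals, to show how far the identity of the Mir29b copies runs beyond the mature RNA.

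Mir29a, 88 bases: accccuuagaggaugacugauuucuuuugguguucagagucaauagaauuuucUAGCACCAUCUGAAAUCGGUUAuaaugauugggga

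Mir29b-1, 71 bases: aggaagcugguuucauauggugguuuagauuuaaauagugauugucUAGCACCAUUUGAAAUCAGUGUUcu

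Mir29c, 88 bases: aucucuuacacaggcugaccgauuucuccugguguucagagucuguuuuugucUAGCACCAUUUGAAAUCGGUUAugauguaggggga

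Mir29b-2, 81 bases: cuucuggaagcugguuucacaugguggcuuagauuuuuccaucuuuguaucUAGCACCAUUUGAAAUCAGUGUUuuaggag

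The Mir29b hairpins share 25 bases in a row, ucuagcaccauuugaaaucaguguu, which is the whole 3p arm and the 2 bases before it. Mir29c and Mir29b-1 share 22 bases, uugucuagcaccauuugaaauc, which begin 5 bases before the 3p arm and stop before the first base that tells the arms apart. The longest stretch common to the hairpins of Mir29a and Mir29c is 14 bases. No window of 18 bases in Mir29a occurs in another annotated precursor. In Mir29c, 5 of 71 such windows do, none of them wholly inside a mature arm. In the 3p arms of the Mir29b copies, all 6 windows do. The deposited tables hold reads that aligned to several places in a summary row of their own and not on genes. A read that matches both Mir29b copies equally well is therefore in neither count, and the counts of the Mir29b genes are those of reads placed at a single site. Which arm these reads came from cannot be read from counts per gene.

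Depth was 8152102 reads in replicate 1 and 10176117 reads in replicate 2, of which 43.1% and 38.8% fell on the sense strand of a miRNA gene. All levels are counts per 1e6 of these sense reads (CPM), and 1 read is worth 0.285 CPM in replicate 1 and 0.253 CPM in replicate 2. Reads with several alignments made up 42.6% of the file in replicate 1 and 46.4% in replicate 2. The labelled tissue was checked against 9 striated muscle miRNA genes, of which 8 were detected, that is, had 2 CPM or more in both libraries. They held 11.7% of sense reads in replicate 1 and 9.61% in replicate 2, nearly all on Mir206. The 7 neural and glial genes give no check of nerve content: 6 of them are Mir9 and Mir124a genes, copies that share mature arms and whose reads may have been set aside, and 4 of these had 0 reads in both libraries. The other gene, Mir338, known from glia and neurons, was detected at 243 CPM in replicate 1 and 366.9 CPM in replicate 2.

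The counted family was a small part of the miRNA pool. Its 4 genes together had 509 reads in replicate 1 and 725 reads in replicate 2. These were 0.0145% (Wilson 95% interval 0.0133% to 0.0158%) and 0.0184% (0.0171% to 0.0197%) of the sense reads. Intervals cover counting error only, not the spread between animals, and the reads carry no molecular identifiers. The mean share was 0.0164% ± 0.00273 (SD, n = 2 animals). At 2 CPM or more in both libraries 2 of the 4 genes were detected, against 332 of 2202 annotated miRNA genes, or 15.1%. At 1 CPM, or with unstranded counts, all 4 were. With 4 genes, among them a pair of copies, this is a description only.

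Mir29a, on chromosome 6, was the highest member. It had 375 reads or 106.8 CPM in replicate 1 (Wilson 95% interval 96.5 to 118.2 CPM) and 528 reads or 133.7 CPM in replicate 2 (122.8 to 145.6 CPM). Its rank among all 2202 genes was 178 in replicate 1 and 168 in replicate 2, in the middle of the detected genes, whose median level was 129.7 CPM. It held 73.7% and 72.8% of the family's reads in replicates 1 and 2.

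Mir29c, on chromosome 1, was the second member, below Mir29a in both libraries. It had 122 reads or 34.7 CPM in replicate 1 (29.1 to 41.5 CPM) and 181 reads or 45.8 CPM in replicate 2 (39.6 to 53.0 CPM). Its rank was 213 in replicate 1 and 207 in replicate 2. It held 24.0% and 25.0% of the family's reads in replicates 1 and 2.

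Mir29b-1 and Mir29b-2 had the same count as each other in each library. Each had 6 reads or 1.71 CPM in replicate 1 (0.783 to 3.73 CPM) and 8 reads or 2.03 CPM in replicate 2 (1.03 to 4.00 CPM). Both stood above the 3 reads that a count of 0 allows, 0.854 CPM in replicate 1 and 0.760 CPM in replicate 2. They missed the 2 CPM limit in replicate 1 only. Together the copies held 2.36% and 2.21% of the family's reads in replicates 1 and 2. In order of level Mir29a lay above Mir29c, and Mir29c above the Mir29b copies, with no overlap of the counting intervals in either library. The copies had equal counts, which are too small to tell whether their levels differ. This is the order of reads placed at a single site, not of the mature RNAs, because miR-29b-3p is the arm that cannot be placed. Fewer cells that make a miRNA and less of it per cell cannot be told apart in these bulk samples.

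**Figure D1:**
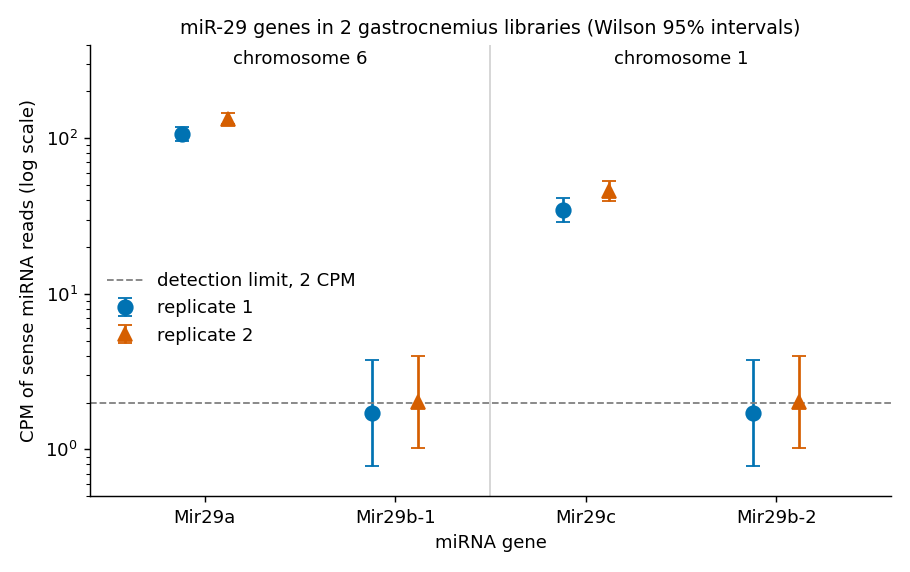
The plot shows the level of each miR-29 gene in CPM of sense miRNA reads on a log axis, with 1 point per library (circles replicate 1, triangles replicate 2), Wilson 95% intervals as bars, and genes grouped by locus. Mir29a lies at 106.8 and 133.7 CPM and Mir29c at 34.7 and 45.8 CPM, while both Mir29b copies lie at 1.71 and 2.03 CPM, at the 2 CPM detection limit drawn as a dashed line.

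Within the chromosome 6 locus, Mir29a had 62.5 times the reads of Mir29b-1 in replicate 1 (exact binomial 95% interval 28.4 to 171.4) and 66.0 times in replicate 2 (33.3 to 153.7). Within the chromosome 1 locus, Mir29c had 20.3 times the reads of Mir29b-2 in replicate 1 (9.08 to 56.5) and 22.6 times in replicate 2 (11.2 to 53.2). With 0.5 added to each count, the mean log2 ratios were 5.91 ± 0.08 at chromosome 6 and 4.33 ± 0.13 at chromosome 1 (SD, n = 2). The intervals of the loci overlapped in each library, and the small counts of the copies set their width. Hairpin lengths differ within the loci, 88 against 71 bases on chromosome 6 and 88 against 81 bases on chromosome 1. Per base of gene length the mean log2 ratios were 5.60 and 4.21.

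Between the loci, the counts of the genes with their own 3p arm kept nearly the same proportion in both animals. Mir29a had 3.07 times the reads of Mir29c in replicate 1 (2.50 to 3.80) and 2.92 times in replicate 2 (2.46 to 3.47). Both hairpins have 88 bases, so the ratio is the same per base. The mean log2 ratio was 1.58 ± 0.05. Whole loci gave a like value, 2.98 in replicate 1 (2.43 to 3.67) and 2.84 in replicate 2 (2.40 to 3.37). The chromosome 6 locus thus held 74.4% ± 0.652 of the family's counted reads and the chromosome 1 locus 25.6% ± 0.652 (SD, n = 2). Neither library's interval reached 1, and the split moved less between the animals than its counting interval within an animal, 70.8% to 78.6% in replicate 1 for the chromosome 6 locus. Set-aside reads of miR-29b-3p could belong to either locus and are in neither share.

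Other clusters in which a neighbour with its own arms sits beside a copy with a shared arm were set beside the miR-29 loci as a description. Mir24-1 and Mir24-2 share miR-24-3p, the arm that most of their reads are known to come from. Mir23b had 1060 times the reads of Mir24-1 in replicate 1 (883.5 to 1283) and 1042 times in replicate 2 (878.6 to 1245). Mir23a had 248.7 times those of Mir24-2 in replicate 1 and 244.4 times in replicate 2. Mir16-1 and Mir16-2 share miR-16-5p, yet Mir15a had 0.643 times the reads of Mir16-1 in replicate 1 and 0.745 times in replicate 2. Mir15b had 1.97 times those of Mir16-2 in replicate 1 and 1.89 times in replicate 2. By this ratio the miR-29 loci thus lay between the miR-24 and the miR-16 pairs, and a shared mature arm did not go with 1 size of ratio. The ratio also depends on the neighbour, whose mean level was 34918 CPM for Mir23b against 120.2 CPM for Mir29a. By their own level the Mir29b copies were not in between but lowest, with a mean of 1.87 CPM each. Means of the remaining copies ranged from 33.2 CPM (Mir24-1) up to 823.3 CPM (Mir16-1).

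**Figure D2:**
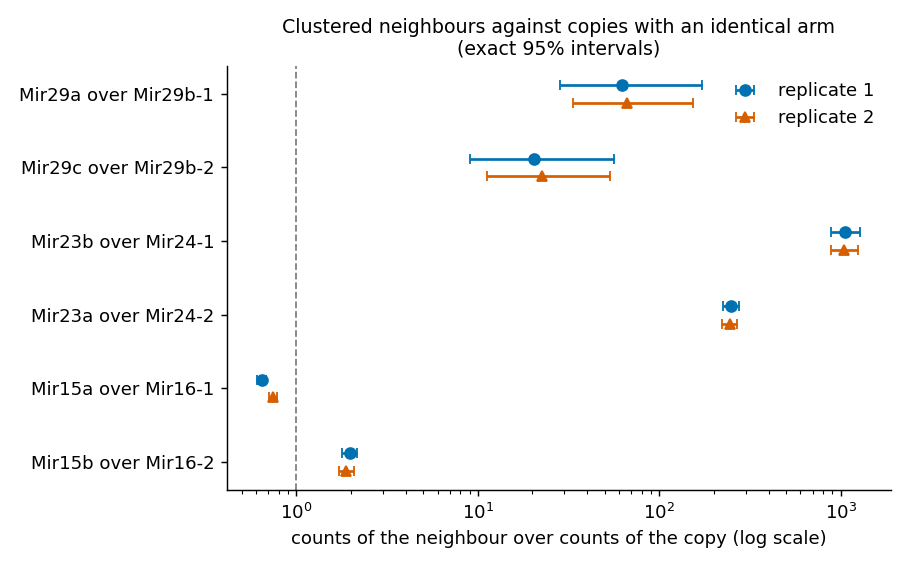
The plot shows, for 6 clustered pairs, the counts of a neighbour over those of a copy that shares a mature arm with another gene, on a log axis, with 1 point per library (circles replicate 1, triangles replicate 2) and exact 95% intervals. Mir29a over Mir29b-1 lies at 62.5 and 66.0 and Mir29c over Mir29b-2 at 20.3 and 22.6, below the miR-24 pairs and above the miR-15 and miR-16 pairs, which lie near the dashed line at 1.

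Across the table, 1018 genes matched a RefSeq symbol with mature sequences. Of these, 94 carry an arm identical to that of another gene, and 39 of them (41.5%) were detected, with a median of 48.4 CPM among those detected. Of the 924 genes with no such arm 261 (28.2%) were detected, with a median of 183.2 CPM. No read in either library was seen for 35 of the 94 genes with an identical arm and for 373 of the 924 without one, and the Mir29b copies had 6 to 8 reads each. Mir29a and Mir29c lay under the median of detected genes without one.

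The genes nearest to Mir29a in level over the 2 libraries, by Euclidean distance in log2(CPM + 1), were Mir30b (116.2 CPM in replicate 1 and 126.3 CPM in replicate 2, distance 0.15), Mir132 (97.1 and 119.8 CPM, distance 0.21) and Mir339 (115.6 and 115.2 CPM, distance 0.24). Those nearest to Mir29c were Mir30c-1 (36.7 CPM in replicate 1 and 47.3 CPM in replicate 2, distance 0.09), Mir675 (37.0 and 44.6 CPM, distance 0.10) and Mir450-1 (37.9 and 42.5 CPM, distance 0.16). Likeness over 2 libraries means a similar level and a similar difference between the animals, and no more. None of these genes lies on the chromosome of the member it resembles.

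**Figure D3:**
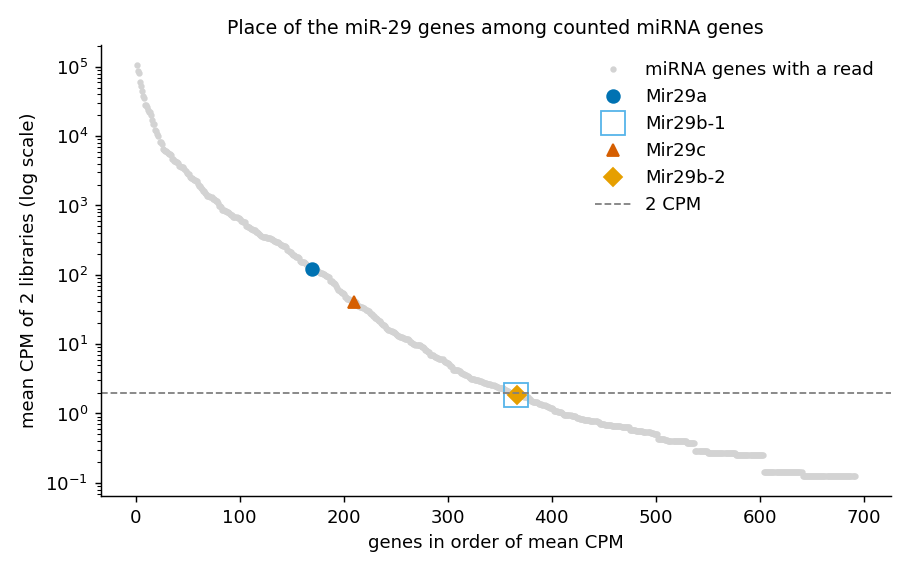
The plot shows the mean CPM of each miRNA gene with at least 1 read on a log axis, in order of level, with the 4 miR-29 genes marked. Mir29a (mean 120.2 CPM, rank 170) and Mir29c (40.3 CPM, rank 210) lie above the dashed line at 2 CPM, and the Mir29b copies share rank 366, under it.

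Other miRNAs known from matrix remodelling and fibrosis were set beside miR-29. Of 13 such genes 11 were detected, 4 had a higher mean than Mir29a, and 8 had a higher mean than Mir29c. The 4 above Mir29a were Mir143, known from smooth muscle, at 25998 ± 4515 CPM, Mir21a, known to promote fibrosis, at 4408 ± 220.7 CPM, Mir214, known from mesenchyme, at 3341 ± 791.8 CPM, and Mir145a, clustered with Mir143, at 688.3 ± 18.8 CPM (SD, n = 2 each). The mean CPM of Mir21a was thus 36.7 times that of Mir29a, which is a ratio of counted reads and not of molecules. Of 14 genes known from muscle differentiation and maturation 13 were detected, and 5 had a higher mean than Mir29a. The highest 4 of these were Mir206 at 105606 ± 14626 CPM, Mir378a at 85870 ± 12007 CPM, Mir181a-1 at 348.9 ± 10.8 CPM and Mir499 at 339.8 ± 5.66 CPM. Mir378a is encoded in an intron of the coactivator gene Ppargc1b, and Mir499 in a slow myosin gene. Both lists hold copies, such as Mir133a-1 and Mir133a-2, whose reads may have been set aside like those of Mir29b, so the order holds for counted reads. Over all 2202 genes, 15.1% were detected, 7.67% had a higher mean than Mir29a and 9.49% a higher mean than Mir29c. The lists were chosen with earlier results of these data known, so their counts are a description only.

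Between the animals, all 4 members were lower in replicate 1 than in replicate 2. Mir29a in replicate 1 was at 0.799 of its CPM in replicate 2 (exact 95% interval 0.698 to 0.914), and Mir29c at 0.758 (0.598 to 0.959). Each Mir29b copy stood at 0.844, with an interval of 0.241 to 2.77 that 14 reads in all allow. The coefficient of variation over the 2 animals was 15.8% for Mir29a, 19.4% for Mir29c and 12.0% for each Mir29b copy, against a median of 10.2% over the 332 detected genes. Of these detected genes 110 had a larger one than Mir29a and 79 a larger one than Mir29c. In edgeR, the biological coefficient of variation common to 320 genes was 0.188. Mir29a and Mir29c thus had a larger coefficient over the 2 animals than the median detected gene, and many genes had a larger one still. These coefficients include counting error, and with 14 reads in all that of each Mir29b copy says little about the animals. Those of Mir29a and Mir29c also depend on the denominator, and were smaller when levels were scaled to all reads in the files.

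A two-sided exact binomial test of the counts was run over 395 genes, given the library totals. It compares these 2 libraries, not conditions, and counts no variation between animals. Mir29a had a log2 ratio, replicate 1 over replicate 2, of -0.32 (exact adjusted p = 0.00267) and Mir29c of -0.40 (exact adjusted p = 0.0445). For Mir29c the p passed 0.05 by little, with 0.0517 under trimmed-mean (TMM) scaling and 0.0760 when all genes with a read were tested. Each Mir29b copy had -0.22 (exact adjusted p = 0.870). An adjusted p under 0.05 was thus reached by 2 of the 4 members, against 163 of 395 genes (41.3%). No member also reached a 2-fold difference, against 28 of 395 genes (7.09%). Absolute log2 ratios larger than that of Mir29a were seen in 42.3% of tested genes, and larger than that of Mir29c in 33.4%. The median log2 ratio was -0.27 over the members and 0.03 over all genes tested.

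**Figure D4:**
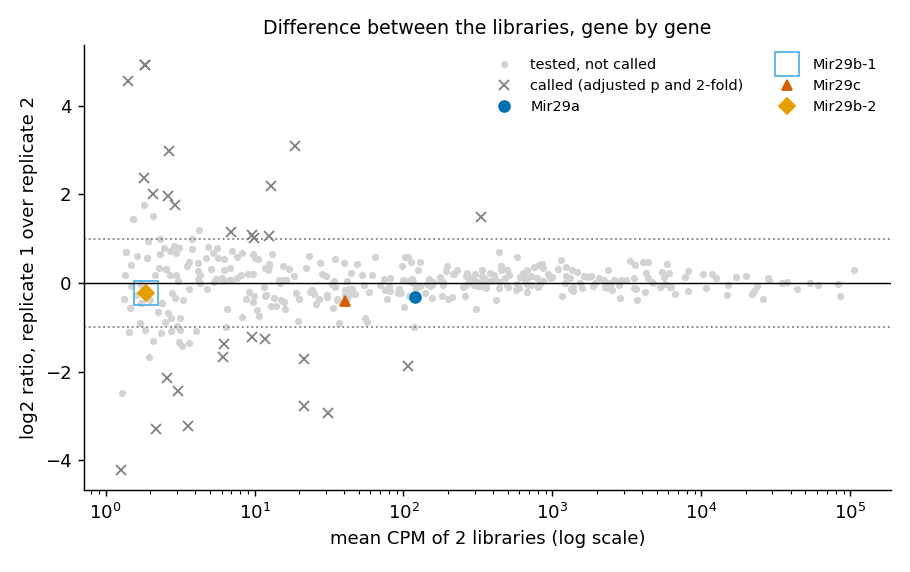
The plot shows the log2 ratio of replicate 1 over replicate 2 against the mean CPM on a log axis, with 1 point per tested gene, crosses for genes past both the adjusted p and the 2-fold limit (dotted lines), and the 4 miR-29 genes marked. Mir29a (-0.32) and Mir29c (-0.40) lie under 0 and within the dotted lines, and the Mir29b copies, which have the same values, lie on each other at -0.22.

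Over all 395 genes tested, 96 were higher in replicate 1 and 67 in replicate 2 at an adjusted p under 0.05, and the lists are described beside these counts. Of 11 matrix and fibrosis genes tested, 4 were higher in replicate 1 and 1 in replicate 2 at an adjusted p under 0.05, with a median log2 ratio of 0.09, so that 5 of 11 passed, near the 41.3% of all genes. Mir214 was higher in replicate 1 (3900 CPM in replicate 1 and 2781 CPM in replicate 2), and Mir143 was lower there (22806 CPM in replicate 1 and 29190 CPM in replicate 2). Mir200b, named after its values were seen, was the 1 gene past both the adjusted p and the 2-fold limit. It had 46 reads in replicate 1 and 24 in replicate 2. Of 13 tested muscle maturation genes, 1 was higher in replicate 1 and 4 in replicate 2 at an adjusted p under 0.05, by the same exact test. Their median log2 ratio was -0.28, and 0 passed both limits. Mir133a-1, in both lists, was past 2-fold with a log2 ratio of -1.07, but its exact adjusted p was 0.103. The share under 0.05, 5 of 13, is also near that of all genes. Mir206 was the 1 gene higher in replicate 1, at 115948 CPM against 95264 CPM in replicate 2.

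Sums over marker miRNAs of other cells were set beside these values, and the sums were not tested. By gene, the exact adjusted p was 0.289 for Mir145a, 0.650 for Mir199b, 0.920 for Mir144, 0.549 for Mir150 and 0.735 for Mir155. For the other tested markers of these cells it was under 0.05, as for 41.3% of all tested genes. None of them passed both the adjusted p and the 2-fold limit, against 7.09% of all tested genes. The 4 fibroblast and mesenchyme genes, of which 3 were detected and 0 were at 0, summed to 0.403% of sense reads in replicate 1 and 0.289% in replicate 2, nearly all on Mir214. The smooth muscle and stroma genes Mir143 and Mir145a summed to 2.35% in replicate 1 and 2.99% in replicate 2, nearly all on Mir143. The endothelial gene Mir126a held 4.20% in replicate 1 and 4.63% in replicate 2. The 2 erythroid genes summed to 0.207% in replicate 1 and 0.187% in replicate 2, mostly on Mir451a. The 4 leukocyte genes summed to 0.0743% and 0.0654%, while 1 of them, Mir155, went the other way (180.6 CPM in replicate 1 and 185.8 CPM in replicate 2). The neural and glial genes summed to 0.0243% in replicate 1 and 0.0369% in replicate 2, nearly all on the single gene Mir338, with 853 reads in replicate 1 and 1449 in replicate 2. The miR-29 share was 0.0145% in replicate 1 and 0.0184% in replicate 2. The smooth muscle and endothelial sums and Mir338 were also higher in replicate 2, and the fibroblast, erythroid and leukocyte sums were higher in replicate 1. The striated muscle sum, nearly all on Mir206, was higher in replicate 1 too, at 11.7% against 9.61% in replicate 2. The other tested striated muscle genes were lower in replicate 1, with log2 ratios from -0.03 (Mir499) to -1.07 (Mir133a-1). The part of cell makeup in the miR-29 difference was not tested.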

How the data were processed

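The authors deposited, for each library, raw read counts per miRNA gene without strand, on the sense strand and on the antisense strand, with no normalization. The build was mm10 and the annotation GENCODE M21, per the descriptions deposited with the counts. The aligner, its trimming and its filters were not given in the sources used here. The sense column was read from the column layout and totals. Summary rows (unaligned, multiply aligned, outside miRNA genes) stayed out of totals and tests. All 2202 gene identifiers matched GENCODE M21.

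Sense counts were scaled to 1e6 sense reads on miRNA genes (CPM). Genes with at least 10 reads in both libraries together entered a two-sided exact binomial test with Benjamini-Hochberg adjustment over all genes tested. Genes were called at 2-fold with an adjusted p under 0.05. Log2 ratios had 0.5 counts added. The test was checked on simulated data whose counts varied by counting error only, so the check does not cover variation between animals. Alternatives for library size used edgeR 4.0.16 (TMM) and DESeq2 1.42.0 size factors in R 4.3.3, and tests used scipy 1.17.1. Mature and hairpin sequences are RefSeq's (GRCm38.p6), and shared windows of 18, 20 and 22 bases were searched on both strands of all annotated precursors that do not overlap the gene. A genome sequence was not used here.

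Named genes were the 4 members, the 3 genes nearest to Mir29a and to Mir29c, copies with an identical arm beside a clustered neighbour, and the 4 highest genes of each list. Members and lists were chosen with earlier results of these data known.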

Additional observations from a re-analysis of the deposited data

How the results depend on the processing

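The family share was 0.0164% of sense miRNA reads, 0.00668% over all reads in the files and 0.0197% over unstranded counts, which give the members the same reads and a smaller total. It was 0.0183% without Mir206 in the denominator and 0.0164% under TMM scaling, and it ranged from 0.0145% to 0.0184% when either animal was left out. The mean log2 ratio of Mir29a over Mir29b-1, 5.91, was 5.60 per base of gene length and 5.81 with 1 count added. The ratios of Mir29c over Mir29b-2, of Mir29a over Mir29c and of the loci moved by less than their SD under each of these alternatives. The number of members detected was 2, and 4 at 1 CPM or with unstranded counts, where 381 (17.3%) and 322 (14.6%) of all genes were detected. At 10 CPM it was 2. Under TMM scaling, DESeq2 size factors, no count minimum, unstranded counts and 1 count added, 0 members were called and 25 to 30 genes overall. The log2 ratio of every member kept its sign in these 5 alternatives. The exact adjusted p of Mir29a ranged from 0.000408 to 0.00468 and that of Mir29c from 0.0218 to 0.0760.

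Depth limits the Mir29b copies most, with 6 to 8 reads each. Reads set aside as matching several places were 3469647 in replicate 1 and 4718603 in replicate 2, and how many of them are miR-29b-3p cannot be told from counts per gene.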
